A study of Mus musculus with 2 samples.

Results

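A set of 25 autosomal genes took at most 20% of their allele-resolved reads from the BL6 allele in both the adult and the aged heart, so that most of their measured RNA came from the CAST allele. They were drawn from 7068 genes on chromosomes 1 to 19 that held 100 or more SNP-overlapping reads, that is, reads that cover a position at which the strains differ, in each library. The measure was the allelic ratio, the share of these reads assigned to BL6, where 1 stands for BL6 alone and 0 for CAST alone. Both libraries were snRNA-seq of nuclei from the heart of F1 females with a BL6 (C57BL/6J) mother and a CAST (CAST/EiJ) father, 1 adult animal of 9 weeks and 1 aged animal of 78 weeks. The labels give C57BL/6JxCAST/EiJ as genotype in one field and a mother of the strain C57BL/6J∆Xist-/+ in another for both animals, and the study's methods name wild-type females. Only nuclei whose active X chromosome (Xa) was that of BL6 were pooled, all cell types together. With 1 library per age there was no replicate and no test between ages, and the intervals given in parentheses are 95% intervals, exact where no other method is named, that cover counting error only.

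An imprinted gene is expressed from the allele of 1 parent, through DNA methylation that is laid down in the germ line of the mother or the father and is kept in the cells of the offspring. A gene that differs between alleles through the DNA sequence of the strain itself (a cis effect) follows the strain, whichever parent passed it on. In the cross used here CAST is always the paternal strain, so that for a single gene the parent and the strain cannot be told apart by the reads, and the genes were separated only by a list of 44 paternally and 38 maternally expressed imprinted genes taken from general knowledge. The set held imprinted genes, a protocadherin cluster, single protein-coding genes and predicted transcripts.

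By this list, 4 of the 25 genes were paternally expressed imprinted genes (Snurf, Snrpn, Sgce and Airn, in 3 loci), and the other 21 had no listed imprinted gene within 500 kb. Of these 21, 8 were protocadherin alpha genes that share most of their span, and 13 were other genes. After overlapping genes were merged, the 25 genes made up 17 loci on 11 chromosomes. The set was 0.354% of the genes with 100 or more reads in both libraries, and it was smaller than its mirror image, the 53 genes (0.750%) with an allelic ratio of 0.80 or more in both. In the adult library 35 of these genes (0.495%) had an allelic ratio of 0.20 or less, and in the aged library 38 (0.538%). The median allelic ratio of all 7068 genes was 0.533 (adult) and 0.536 (aged).

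**Figure D1:**
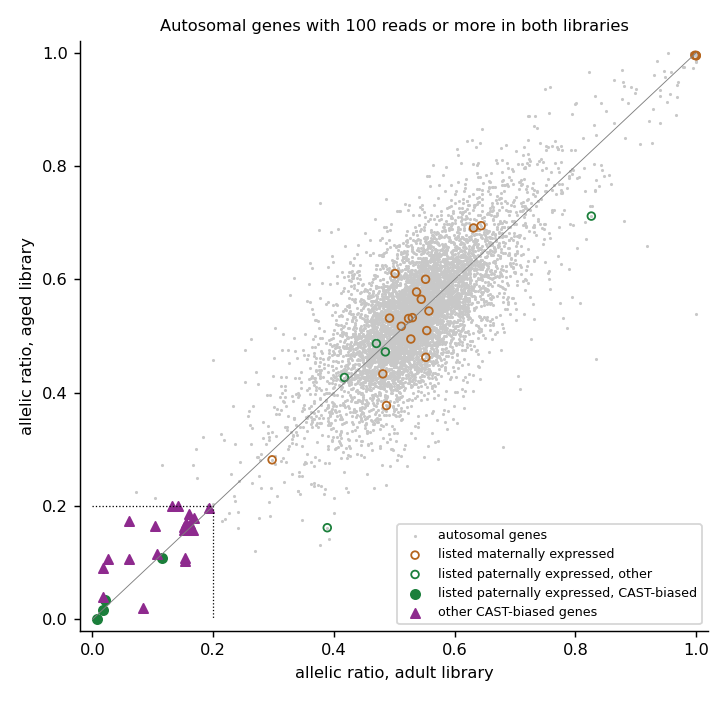
Allelic ratio (BL6 share of SNP-overlapping reads) of 7068 autosomal genes in the adult library (x axis) and the aged library (y axis), 1 point per gene, with the listed imprinted genes marked by colour. The 25 CAST-biased genes lie in the dotted corner at an allelic ratio of 0.20 or less in both libraries, while most genes lie around the medians of 0.533 and 0.536.

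The values that chose the genes are a description. The genes were chosen by allelic ratio and read number alone, and their allelic ratio ran from 0.00690 to 0.193 (median 0.133) in adult nuclei and from 0 to 0.2 (median 0.158) in aged nuclei. The genes held 149 to 6249 reads (median 343) at the adult and 105 to 4546 reads (median 306) at the aged time point, beside medians of 492 and 327 reads over all 7068 genes. The whole interval lay at or below 0.20 for 18 of the 25 genes at 9 weeks, for 15 at 78 weeks and for 12 at both. Just inside the limit, by the larger of both values, were Grk6 (0.193 and 0.196), Kcnq5 (0.133 and 0.199) and LOC102639518 (0.142 and 0.2). Just outside it were Tesc (0.193 and 0.201), Pcdha9 (0.192 and 0.202) and Lrtm1 (0.20 and 0.204), whose intervals overlapped those of the genes just inside.

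**Figure D2:**
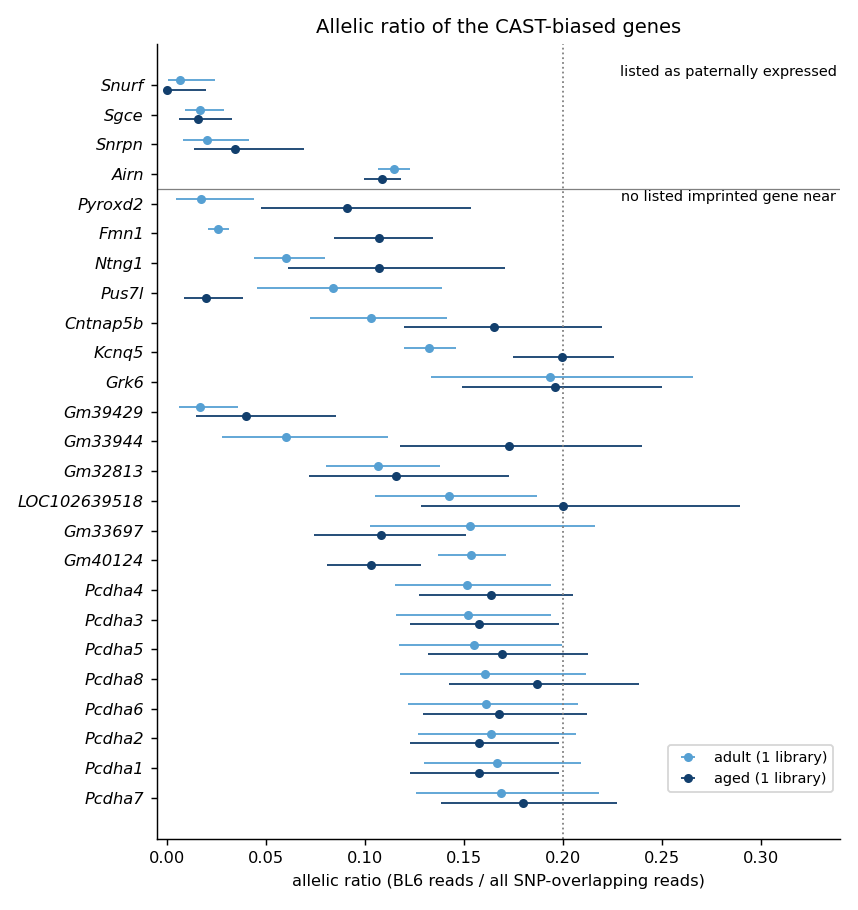
Allelic ratio (x axis) of each of the 25 CAST-biased genes in the adult (light) and aged (dark) library, with exact 95% intervals and the limit of 0.20 as a dotted line. Snurf, Sgce and Snrpn lie at or below 0.0343 in both libraries, Airn at 0.115 and 0.109, and the Pcdha genes between 0.152 and 0.187.

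The listed paternally expressed genes stood at different levels. Snurf and Snrpn are made from 1 transcript on chromosome 7, which encodes a short upstream reading frame (Snurf) and the spliceosomal protein SmN (Snrpn). Snurf (chr7:59982501-60005156, GRCm38) held 2 BL6 reads of 290 at 9 weeks and 0 of 185 at 78 weeks, for which 0 reads allow an allelic ratio of up to 0.0197 by the exact interval. The longer gene Snrpn held 7 of 344 and 7 of 204 BL6 reads, an allelic ratio of 0.0203 (0.00822 to 0.0415) and 0.0343 (0.0139 to 0.0694). Most of the reads of Snrpn were those of Snurf, while outside the Snurf span Snrpn held 5 BL6 reads of 54 and 7 of 19. Sgce, which encodes epsilon-sarcoglycan, a protein of the dystrophin-associated complex, had 13 BL6 reads of 760 and 7 of 435, or 0.0171 (0.00914 to 0.0291) and 0.0161 (0.00649 to 0.0329). Pooled over these loci, without Airn, the BL6 share was 1.81% (1.11 to 2.78%) in adult and 2.19% (1.2 to 3.6%) in aged nuclei.

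Airn, the other listed gene, is a long noncoding RNA that is transcribed from within Igf2r in the antisense direction on the paternal allele and silences Igf2r there. It was the most deeply covered gene of the set, with 717 BL6 reads of 6249 (adult) and 494 of 4546 (aged). Its allelic ratio of 0.115 (0.107 to 0.123) and 0.109 (0.0998 to 0.118) lay above the intervals of Snurf, Snrpn and Sgce in both libraries. Airn (chr17:12741311-12859884, GRCm38, plus strand) and Igf2r (minus strand) overlap by 28.4 kb, and the sources used here do not state that strand entered the counting, so that reads of this stretch cannot be told apart. Igf2r, listed as maternally expressed, had an allelic ratio of 0.298 and 0.282, which lay on the CAST side of 0.5. Mas1, which overlaps Airn by 21.8 kb, held 13 BL6 reads of 77 and 9 of 31.

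The remaining listed paternally expressed genes did not all lean to CAST. Of the 44 on the list 37 had a read, and 9 had 100 or more reads in both libraries. Beside the 4 CAST-biased genes these were Kcnq1ot1 (0.389 and 0.162), the antisense RNA of the Kcnq1 domain, Inpp5f (0.417 and 0.427), Impact (0.485 and 0.472), Bcl2l1 (0.470 and 0.487) and Magi2 (0.826 and 0.712). The list marks Inpp5f as imprinted for a variant only, and Bcl2l1 and Magi2 by tissue. For Impact and Kcnq1ot1 it gives no such restriction. A further 7 had 20 or more reads in both libraries but under 100 in one, and 4 of these had an allelic ratio of 0.20 or less in both: Peg3 (21 BL6 reads of 202 and 1 of 43), Plagl1 (26 of 402 and 8 of 98), Slc38a4 (10 of 149 and 0 of 50, which allows an allelic ratio of up to 0.0711) and Snhg14 (0 of 91 and 0 of 43, which allow up to 0.0397 and 0.0822), the RNA that follows Snurf and Snrpn on chromosome 7. Of the 38 listed maternally expressed genes 20 had 100 or more reads in both libraries, and none of them was CAST-biased. Grb10 (0.998 and 0.995), Meg3 (1 and 0.995) and Rian (1 and 0.995) had an allelic ratio of 0.80 or more in both, which gives the direction of the measure. Apart from Igf2r, the lowest of the 20 at 9 weeks were Herc3 (0.481 and 0.433), Kcnq1 (0.487 and 0.377) and Ube3a (0.492 and 0.532). The span of Kcnq1 holds that of Kcnq1ot1, so that the reads of this stretch cannot be told apart, and the values of both genes can be mixtures. The rest (Ago2, Atp10a, Cd81, Cobl, Commd1, Copg2, Dcn, Gnas, H13, Nap1l4, Osbpl5, Ppp1r9a and Trappc9) lay between 0.501 and 0.644 at 9 weeks and between 0.463 and 0.695 at 78 weeks. The list marks each of these, and Herc3, Kcnq1 and Ube3a, as imprinted only by tissue, stage, isoform or promoter, for several in brain or placenta. Whether these genes are imprinted in heart nuclei was not tested.

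Among the 14 loci without a listed imprinted gene, the pooled BL6 share was 8.93% (8.42 to 9.47%) in adult and 13.2% (12.3 to 14.2%) in aged nuclei. Without Fmn1 it was 12.0% (11.3 to 12.8%) and 13.6% (12.6 to 14.7%), and the medians over the 14 loci were 0.105 and 0.112. The pooled shares weigh each locus by its reads, and their intervals do not cover the spread between loci. Single loci ran from 0.0168 to 0.193 (adult) and from 0.0199 to 0.2 (aged). Fmn1, which encodes formin 1, a protein that nucleates actin filaments, was the most deeply covered of them in the adult library (chr2:113327710-113716768, GRCm38, plus strand). It held 97 BL6 reads of 3765 in adult nuclei and 68 of 633 in aged nuclei, an allelic ratio of 0.0258 (0.0209 to 0.0313) and 0.107 (0.0844 to 0.134). The RNA 4930533B01Rik within Fmn1 held 1 BL6 read of 110 and 1 of 13, and without its reads the allelic ratio of Fmn1 was 0.0263 and 0.108. In the adult library the interval of Fmn1 overlapped those of Snurf, Snrpn and Sgce, and in the aged library it lay above them.

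Kcnq5, a subunit of voltage-gated potassium channels (chr1:21398399-21962650, minus strand), held 344 BL6 reads of 2596 and 194 of 973, an allelic ratio of 0.133 (0.120 to 0.146) and 0.199 (0.175 to 0.226). Ntng1, which encodes netrin-G1, a membrane-anchored protein of axon guidance, held 44 of 731 and 15 of 140, or 0.0602 (0.0441 to 0.0800) and 0.107 (0.0612 to 0.171). Cntnap5b, of the neurexin-like contactin-associated proteins, held 34 of 329 and 38 of 230, or 0.103 and 0.165. These genes, best known from neurons, were measured at 24.1 to 266 reads per 1000000 SNP-overlapping reads of the library (RPM) in the pool of all heart nuclei.

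Pus7l, which encodes a pseudouridine synthase-like protein (chr15:94522640-94543563, minus strand), held 13 BL6 reads of 155 in adult nuclei and 8 of 402 in aged nuclei, an allelic ratio of 0.0839 (0.0454 to 0.139) and 0.0199 (0.00863 to 0.0388). Pyroxd2, an oxidoreductase-like gene, held 4 of 229 and 12 of 132, or 0.0175 (0.00478 to 0.0441) and 0.0909 (0.0479 to 0.153). Grk6, a kinase of G protein-coupled receptors, had the weakest bias of this group with 29 of 150 and 50 of 255, or 0.193 (0.133 to 0.266) and 0.196 (0.149 to 0.25). Its upper limit exceeded 0.20 in both libraries, while the intervals of Pus7l and Pyroxd2 ended at or below 0.153.

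Predicted transcripts (symbols that begin with Gm or LOC) made up 6 of the 13 other genes. Of 641 Gm, Rik and LOC loci with 100 or more reads in both libraries, 6 (0.936%) were in the set, beside 0.354% of all 7068 genes. An allelic ratio of 0.80 or more in both libraries was held by 17 of the 641, beside 0.750% of all genes. Gm40124, a lncRNA on chromosome 3, was the deepest of the 6 in the set, with 269 BL6 reads of 1752 and 70 of 680, or 0.154 (0.137 to 0.171) and 0.103 (0.0811 to 0.128). Gm39429, a lncRNA on chromosome 9, had the lowest allelic ratio, with 6 of 357 and 6 of 149, or 0.0168 and 0.0403. Gm33944, a lncRNA on chromosome 17, held 9 of 149 and 28 of 162, or 0.0604 (0.0280 to 0.112) and 0.173 (0.118 to 0.240).

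The other predicted transcripts lie inside larger genes that were not CAST-biased. Gm32813 held 51 BL6 reads of 478 and 20 of 173 (0.107 and 0.116) inside Pde4d, a cAMP phosphodiesterase gene whose reads outside Gm32813 had an allelic ratio of 0.531 and 0.569. LOC102639518, which the RefSeq gene table names Gm16316, held 43 of 302 and 21 of 105 (0.142 and 0.2) inside Pkig, an inhibitor of protein kinase A with 0.588 and 0.482 elsewhere. Gm33697, a pseudogene, held 26 of 170 and 30 of 277 (0.153 and 0.108) inside Inpp5a, an inositol phosphatase gene with 0.532 and 0.475 elsewhere. The CAST bias at these loci was therefore that of a stretch and not of the host gene as counted. A second stretch of Pde4d, Gm32703, held 20 BL6 reads of 272 and 11 of 95.

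Protocadherin alpha genes are adhesion molecules of neurons that are read from 1 cluster, in which each gene starts at its own variable exon and all end at shared constant exons. As deposited, each of Pcdha1 to Pcdha8 (chromosome 18) was counted from its own start to the shared end at 37187657, so that the 8 genes share most of their reads and count as 1 locus. Their allelic ratio lay between 0.152 and 0.168 (adult) and between 0.158 and 0.187 (aged), from 255 to 360 and from 273 to 387 reads. Nearer the shared end Pcdha10 and Pcdha11 stood at 0.215 and 0.219 (adult) and 0.174 and 0.178 (aged), the latter within the range of Pcdha1 to Pcdha8, Pcdha12 at 0.226 and 0.188, Pcdhac1 at 0.235 and 0.218, and Pcdhac2 at 0.441 and 0.657. By difference, the stretch from the start of Pcdha1 to that of Pcdhac1 held 33 BL6 reads of 245 and 29 of 240, or 0.135 (0.0946 to 0.184) and 0.121 (0.0824 to 0.169). The next stretch, to the start of Pcdhac2, held 12 of 81 and 9 of 112, or 0.148 and 0.0804. From there to the shared end 15 of 34 and 23 of 35 reads were BL6, or 0.441 (0.272 to 0.621) and 0.657 (0.478 to 0.809), whose intervals did not overlap those of the other stretches. The CAST bias was thus read up to the start of Pcdhac2 and not from there to the shared end, a split that was chosen after the values were seen. The last stretch holds the variable exon of Pcdhac2 as well as the constant exons, and its few reads were not assigned to either. Gm37013, which overlaps the cluster by 235 kb and extends beyond it, held 7606 and 4559 reads with an allelic ratio of 0.508 and 0.498, and its reads cannot be told apart from those of the Pcdha genes where they overlap.

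**Figure D3:**
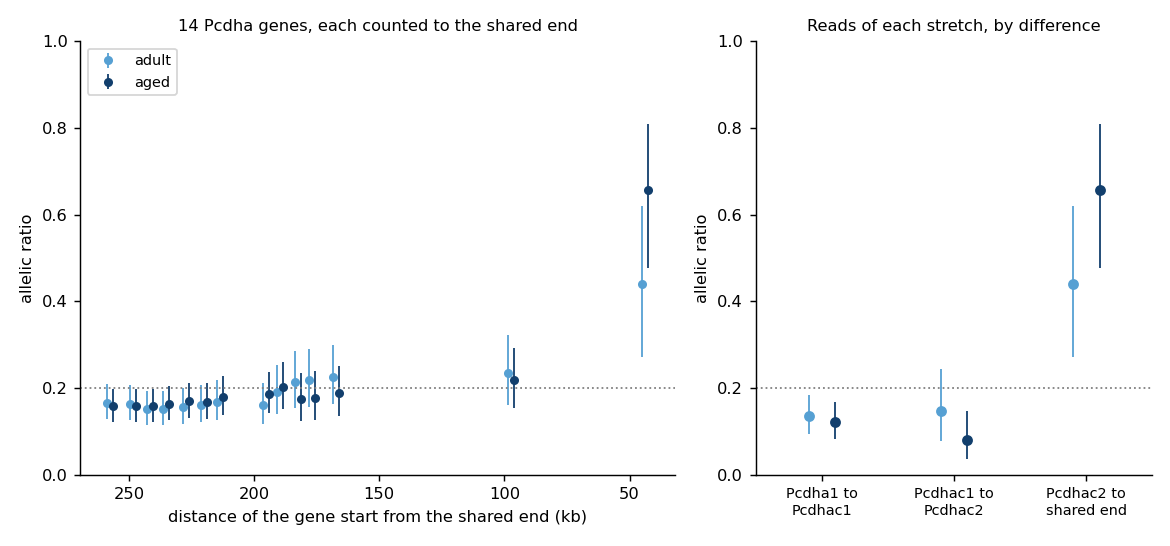
Allelic ratio (y axis) with exact 95% intervals of the 14 genes of the Pcdha cluster against the distance of each start from the shared end in kb (left), and of the reads of each stretch by difference (right), in the adult (light) and aged (dark) library. The allelic ratio is 0.148 or less over the stretches up to Pcdhac2 and is 0.441 and 0.657 over the last one.

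The genes next to the CAST-biased loci were mostly biallelic, in a share near that of all genes. For each of the 17 loci, the nearest gene with 100 or more reads in both libraries on either side was taken, which gave 34 flanking genes (33 distinct) at a median distance of 259 kb. Of these, 29 (85.3%) had an allelic ratio between 0.35 and 0.65 in both libraries, beside 81.7% of all 7068 genes, and the medians were 0.528 and 0.549. Around Fmn1 the next genes were Ryr3 (0.529 and 0.412) and Actc1 (0.440 and 0.497), the cardiac actin gene. Around Sgce they were Casd1 (0.648 and 0.533) and Ppp1r9a (0.527 and 0.495). Irak4, a kinase of innate immune signalling that starts 49 bp from Pus7l on the opposite strand, was the only flanking gene with an allelic ratio at or below 0.30 in a library, with 0.572 (0.492 to 0.65) at 9 weeks and 0.284 (0.211 to 0.366) at 78 weeks. Tmem117, also near Pus7l, had 0.512 and 0.352.

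**Figure D4:**
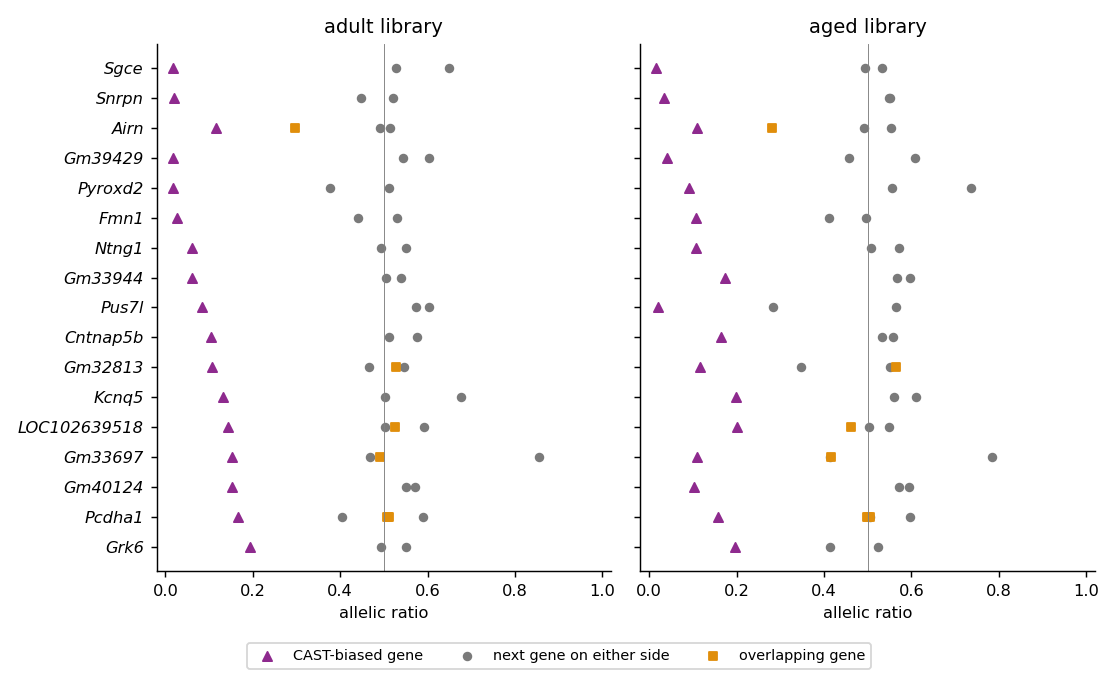
Allelic ratio (x axis) of the CAST-biased gene of each of 17 loci (triangles), of the nearest genes with 100 or more reads on either side (circles) and of overlapping genes (squares, other Pcdha genes not drawn), for the adult (left) and aged (right) library. The circles scatter around the line at 0.5, and Irak4 at 0.284 beside Pus7l in the aged library is the lowest.

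By gene type, 18 of the 24 genes with a RefSeq type were protein-coding (75%), 5 were lncRNAs (20.8%) and 1 was a pseudogene, beside 92.7% protein-coding genes and 6.84% lncRNAs among all genes with 100 or more reads. The genes with an allelic ratio of 0.80 or more in both libraries had 68.6% protein-coding genes and 29.4% lncRNAs. None of the Zfp zinc finger genes (127 with enough reads), solute carrier genes (101), respiratory chain and mitochondrial ribosome genes (96), cytosolic ribosomal protein genes (32), sarcomere genes (31), xenobiotic and aldehyde metabolism genes (27), collagen genes (21), interferon-inducible genes (10) or MHC genes (3) was CAST-biased. With 0.354% of all genes in the set, counts of 0 in groups of this size are no result about the groups.

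For 13 of the 25 genes RefSeq (GRCm38.p6) gave the 250 bases upstream of a transcript start, of which the one nearest the deposited start was taken. For Gm33944 it lay 4968 bp and for Ntng1 533 bp from that start, inside the gene as counted, and for the other 11 within 250 bp. They held a median of 5 CpG, beside 17 for 5518 genes with 100 or more reads, and 5 of the 13 held 10 or more CpG, beside 75.6%. Without Gm33944 and Ntng1 the median was 5 as well, and 4 of 11 held 10 or more. The other 12 genes, which are Sgce, the Pcdha genes of the set and the predicted transcripts inside larger genes, had no such sequence. Of the listed genes, Airn, Snurf and Snrpn held 2, 3 and 3 CpG, and Snurf and Snrpn belong to the same locus. Bases after the transcript start were not counted. These values are therefore no result about the promoters of imprinted genes as a class. The unlisted lncRNAs Gm33944, Gm40124 and Gm39429 held 0, 5 and 4. The unlisted protein-coding genes held 3 (Kcnq5), 9 (Pyroxd2), 12 (Cntnap5b), 13 (Pus7l), 15 (Fmn1), 16 (Grk6) and 25 (Ntng1). The core TGCCGC of the motif of ZFP57, a zinc finger protein that binds methylated imprinting control regions, was searched on both strands and was found upstream of Cntnap5b alone, beside 14.9% of the 5518 genes. The sequences of 4 genes are shown to compare imprinted genes with genes outside the list, in the BL6 reference, so that differences of CAST are not seen. Each is printed 5′ to 3′ on the strand of its gene, with CpG in capitals: Snurf (chr7:60005200-60005449, minus strand), Airn (chr17:12741061-12741310, plus strand), Fmn1 (chr2:113327486-113327735, plus strand) and Pus7l (chr15:94543508-94543757, minus strand).
Snurf: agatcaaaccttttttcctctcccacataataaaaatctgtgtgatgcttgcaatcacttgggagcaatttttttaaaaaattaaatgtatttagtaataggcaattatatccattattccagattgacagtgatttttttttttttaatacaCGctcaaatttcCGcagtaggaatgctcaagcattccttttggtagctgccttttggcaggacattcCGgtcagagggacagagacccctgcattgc
Airn: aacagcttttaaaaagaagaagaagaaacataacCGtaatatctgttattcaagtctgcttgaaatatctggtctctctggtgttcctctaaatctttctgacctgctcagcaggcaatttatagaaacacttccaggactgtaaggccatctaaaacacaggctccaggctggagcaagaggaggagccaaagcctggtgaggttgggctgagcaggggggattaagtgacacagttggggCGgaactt
Fmn1: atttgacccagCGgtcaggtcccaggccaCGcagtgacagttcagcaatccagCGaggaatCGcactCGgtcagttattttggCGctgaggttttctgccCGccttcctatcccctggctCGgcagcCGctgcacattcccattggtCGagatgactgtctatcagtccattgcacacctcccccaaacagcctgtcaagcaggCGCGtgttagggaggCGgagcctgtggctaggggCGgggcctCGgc
Pus7l: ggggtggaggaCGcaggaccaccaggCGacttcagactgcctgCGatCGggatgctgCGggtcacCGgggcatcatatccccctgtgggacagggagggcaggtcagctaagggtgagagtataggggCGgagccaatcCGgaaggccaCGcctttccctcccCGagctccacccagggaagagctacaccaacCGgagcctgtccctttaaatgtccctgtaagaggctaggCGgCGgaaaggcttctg
The upstream bases of Snurf held 3 CpG and those of Airn 2, while Fmn1 held 15 and Pus7l 13. The CpG number did not order the genes by their allelic ratio, since in the adult library Fmn1 (0.0258) lay near Snurf (0.00690) and Snrpn (0.0203), which held 3 CpG each.

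Between the ages, 17 of the 25 genes had a higher allelic ratio in the aged library and 8 a lower one, beside 50.6% of all 7068 genes with a higher one. By locus, with the 8 Pcdha genes counted as 1, these were 11 and 6. The intervals of both libraries did not overlap for 6 of them. The allelic ratio was higher in the aged library for Kcnq5, Gm33944, Pyroxd2 and Fmn1, which makes 4 of 25 beside 9.28% of all 7068 genes, and lower for Pus7l and Gm40124, 2 of 25 beside 7.71%. With the adult reads thinned at random to the aged total, the intervals of Kcnq5 and Fmn1 alone did not overlap, so that 2 genes were higher and 0 lower. Without thinning, the background in either direction was 17.0%, and no background was computed for the thinned counts. The allelic ratio of Fmn1 was 0.0817 (0.0592 to 0.109) higher in the aged library by the Newcombe interval of the difference, that of Pyroxd2 0.0734 (0.0270 to 0.136), that of Kcnq5 0.0669 (0.0394 to 0.0960) and that of Gm33944 0.112 (0.0411 to 0.184). The allelic ratio of Pus7l was 0.0640 (0.0249 to 0.119) lower and that of Gm40124 0.0506 (0.0208 to 0.0778) lower. For Airn the difference, adult minus aged, was 0.00607 with an interval from -0.00604 to 0.0180, and for Sgce 0.00101 with an interval from -0.0172 to 0.0155. A gene can enter the set only with an allelic ratio of 0.20 or less in both libraries, which limits how far these values can differ.

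Among the 25 genes, 3 had at least 2-fold more RPM in total at 78 weeks than at 9 weeks, beside 7.74% of all 7068 genes, and 2 had at least 2-fold less, beside 3.99%. The other 20 lay between. Pus7l was measured at 15.9 RPM (adult) and 69.2 RPM (aged), a ratio of 4.35 (3.61 to 5.28). Grk6 was measured at 15.4 and 43.9 RPM, a ratio of 2.85 (2.32 to 3.52), and Gm33697 at 17.4 and 47.7 RPM, a ratio of 2.74 (2.25 to 3.33). Lower in the aged library were Fmn1, with 386 and 109 RPM and a ratio of 0.282 (0.259 to 0.307), and Ntng1, with 75.0 and 24.1 RPM and a ratio of 0.322 (0.266 to 0.386). The median ratio of the set was 1.22, beside 1.16 for all 7068 genes, and it was 0.968 with 1 gene for each locus, since the Pcdha genes, with ratios of 1.80 to 1.88, count 8 times in the former.

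Of the 4 listed imprinted genes of the set, Airn was the only one whose interval of the aged to adult ratio did not hold 1. Snurf was measured at 29.8 and 31.9 RPM (ratio 1.07, 0.886 to 1.29), Snrpn at 35.3 and 35.1 RPM (0.996, 0.833 to 1.19) and Sgce at 78.0 and 74.9 RPM (0.961, 0.852 to 1.08). Airn was measured at 641 and 783 RPM, a ratio of 1.22 (1.18 to 1.27), above 1 and above the median ratio of 1.16 for all genes.

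Read by allele, the genes whose level differed most showed no single pattern. By CAST reads alone, 3 genes were at least 2-fold higher in the aged library, beside 9.11% of all genes, and 2 at least 2-fold lower, beside 4.90%. For Fmn1 the CAST allele gave 376 and 97.3 RPM (ratio 0.259, 0.236 to 0.283), while the BL6 allele gave 9.95 and 11.7 RPM (1.18, 0.850 to 1.62). For Pus7l the CAST allele gave 14.6 and 67.9 RPM (4.66, 3.84 to 5.68). Its BL6 allele gave 1.33 and 1.38 RPM (1.03, 0.371 to 2.69), from 13 and 8 reads, and this interval allows a 2-fold difference either way. For Kcnq5 the CAST ratio was 0.581 (0.535 to 0.630) and the BL6 ratio 0.947 (0.790 to 1.13). For Ntng1 the CAST ratio was 0.305 (0.25 to 0.37) and the BL6 ratio 0.572 (0.296 to 1.05). In Fmn1, Pus7l and Kcnq5 the intervals of the alleles did not overlap, and that of the BL6 allele held 1. Gm40124 was lower on both alleles, with a CAST ratio of 0.691 (0.627 to 0.759) and a BL6 ratio of 0.437 (0.331 to 0.570), and Grk6 was higher on both, 2.84 (2.26 to 3.59) and 2.89 (1.80 to 4.74). Gm33697 was higher on both as well, with 2.88 (2.34 to 3.56) and 1.94 (1.11 to 3.41). In Pyroxd2 the CAST ratio of 0.895 (0.711 to 1.12) held 1 and the BL6 ratio was 5.04 (1.53 to 21.4), from 4 and 12 reads. Gm33944 had a CAST ratio of 1.61 (1.26 to 2.05) and a BL6 ratio of 5.22 (2.40 to 12.6), the latter from 9 and 28 reads.

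**Figure D5:**
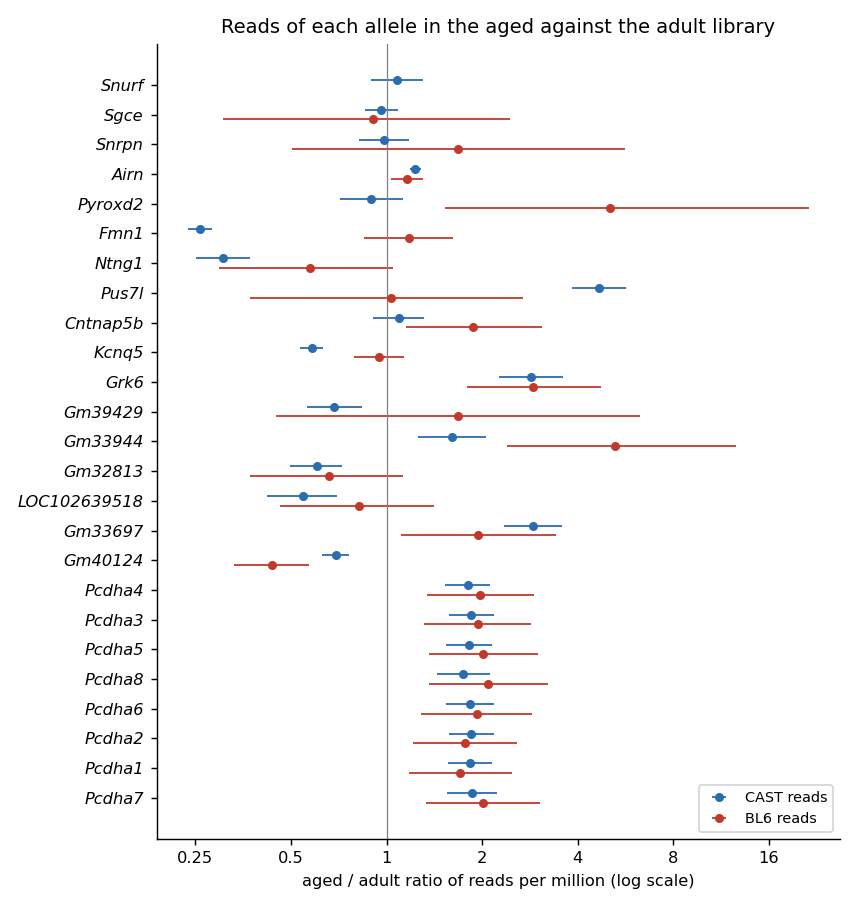
Aged to adult ratio of RPM (x axis, log scale) of the CAST reads (blue) and the BL6 reads (red) of each of the 25 genes, with exact 95% intervals; the BL6 ratio of Snurf is not drawn because its aged library held 0 BL6 reads. Fmn1 and Kcnq5 lie left of 1 and Pus7l right of 1 with their CAST reads, while the intervals of their BL6 reads hold 1.

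In pooled nuclei, fewer nuclei of a type and less RNA per nucleus cannot be told apart. The cell types of the heart were present at unlike summed levels of their marker genes, with all 6 cardiomyocyte markers read at 28281 and 26452 RPM (ratio 0.935, although 4 of the 6 were higher in the aged library) and all 6 fibroblast markers at 614 and 954 RPM (1.55, 4 of 6 higher). The 6 endothelial markers were read at 559 and 872 RPM (1.56, 5 of 6 higher), the 6 macrophage markers at 308 and 504 RPM (1.64, 6 of 6 higher), and 5 of the 6 pericyte and smooth muscle markers, Kcnj8 being at 0, at 176 and 427 RPM (2.43, 4 higher). The 4 neural and Schwann markers were read at 74.2 and 41.3 RPM (0.557, 1 of 4 higher), while of the CAST-biased genes best known from neurons Ntng1 (0.322) and Kcnq5 (0.629) were lower in the aged library and Cntnap5b (1.17) and Pcdha1 to Pcdha8 (1.80 to 1.88) higher. The 6 lymphocyte markers were read at 85.3 and 74.2 RPM (0.871, 3 of 6 higher) and the 4 adipocyte markers at 23.0 and 20.5 RPM (0.892, 2 of 4 higher). The part of these differences in the values of the CAST-biased genes was not tested.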

How the data were processed

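The authors aligned 10x Genomics snRNA-seq reads with Cell Ranger 7.1.0, assigned each nucleus to an active X chromosome, pooled nuclei with a BL6 Xa and counted reads by allele with Allelome.PRO2 and RefSeq genes on GRCm38 (mm10). The submitters' processing notes also name Seurat 5.1.0. The deposited values per gene are read counts of the BL6 allele, the CAST allele and their total, not normalized, the allelic ratio as a fraction that the authors rounded to 2 decimals, and a deposited allelic score, which was not used. The study's methods name CellBender against ambient RNA and DoubletFinder against doublets for the expression matrices, whereas the allele counts start from the Cell Ranger alignments. Whether doublets and duplicate reads were removed before this counting, and whether strand was used, is not given in the sources used here. Summed over genes, the counts of SNP-overlapping reads were 9747535 in 24015 genes at 9 weeks and 5805807 in 22691 genes at 78 weeks. Reads of overlapping genes can enter these sums more than once, and RPM are scaled by these sums. BL6 took 53.4% and 53.8% of the autosomal reads. Ages are those of the labels, from which the name of the aged file differs.

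The allelic ratio was recomputed from the counts. A minimum of 100 reads and an allelic ratio of 0.20 or less in both libraries defined the set. The allelic ratio has Clopper-Pearson intervals, differences in allelic ratio Newcombe intervals, and ratios of RPM (reads per 1000000 SNP-overlapping reads) conditional exact binomial intervals, computed with Python 3.11.15, scipy 1.17.1 and pandas 2.3.3 and tested on simulated data. Intervals treat reads as independent. Whether reads were collapsed by molecular identifier before the counting is not given in the sources used here. Several reads may therefore stem from 1 molecule. Starts, deposited from 0, are given from 1. Gene types and promoters come from RefSeq tables and strands from GENCODE M21. The genes, the list of imprinted genes, the marker and gene group lists and the comparisons were chosen with earlier results of these data known. Named are all 25 genes, the listed imprinted genes with 100 or more reads in both libraries, and the 3 genes just outside the limit. Listed imprinted genes with fewer reads, neighbours, host genes and parts of the Pcdha cluster were chosen after their values were seen. Alternatives were other read minimums, allelic ratio limits, intervals, scales and folds, thinning of the adult reads, deposited or centred allelic ratio, and other treatments of overlapping genes. The use of 1 gene for each locus and thinning for the differences in allelic ratio were added after the data were seen.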

Additional observations from a re-analysis of the deposited data

How the results depend on the processing

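The number of 25 CAST-biased genes depended on the limits. It was 46 with a minimum of 50 reads, 15 with a higher minimum of 200 reads, 6 with an allelic ratio of 0.10 or less, 39 with 0.25 or less, 12 where the upper limit of the interval had to lie at or below 0.20, and 11 without genes that overlap another gene with 100 or more reads in both libraries. It was 28 with the deposited allelic ratio, 31 with the allelic ratio centred on the autosomal median, 22 with the adult reads thinned at random to the aged total (1 draw) and 17 as loci. The genes kept at an allelic ratio of 0.10 or less were Snurf, Snrpn, Sgce, Pus7l, Pyroxd2 and Gm39429. The number of listed imprinted genes ranged from 3 to 6, and no other gene of the set lay within 100 kb or 1 Mb of a listed one. With thinned adult reads, 2 rather than 4 genes had a higher allelic ratio in the aged library beyond the intervals and 0 rather than 2 a lower one, and Pus7l, Grk6 and Gm33944 left the set. With a fold of 1.5 in place of 2, 12 genes were higher in the aged library and 6 lower. The 12 include the 8 Pcdha genes, which form 1 locus. The share of all genes at this fold was not computed, so these counts have no background beside them. The ratio of Fmn1 was 0.259 and that of Kcnq5 0.581 with CAST reads alone. The median aged to adult ratio was 1.22 over all 25 genes and 0.968 with 1 gene for each locus, on the other side of 1. For the 5 genes at least 2-fold apart, no direction was reversed by the other scaling or by CAST reads alone. Depth limits genes near 100 reads most, and without a second cross direction or replicate hearts the spread between animals is unknown. No paired analysis was possible because each age has 1 library.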

Other observations

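A further 23 genes had an allelic ratio of 0.20 or less in 1 library only, so that the 25 genes were 71.4% of the adult and 65.8% of the aged genes below the limit. Of the 10 adult-only genes 7 had an allelic ratio between 0.20 and 0.30 in the aged library, and of the 13 aged-only genes 8 had one in that range in the adult library. The farthest were Dock3, a guanine nucleotide exchange factor, with 0.2 (0.167 to 0.236) at 9 weeks and 0.458 (0.391 to 0.527) at 78 weeks, and Prdm6, a transcriptional regulator of smooth muscle, with 0.401 (0.347 to 0.456) and 0.188 (0.134 to 0.252). Kcnq1ot1, listed as paternally expressed, held 960 BL6 reads of 2468 and 141 of 871, or 0.389 (0.370 to 0.409) and 0.162 (0.138 to 0.188). It lies inside the span of Kcnq1, whose reads cannot be told apart from its own there. Usp19 (0.347 and 0.175) and Nup62 (0.378 and 0.132), a nucleoporin gene, were read at 2.01 and 2.41 times the adult RPM in the aged library. The intervals of both libraries did not overlap for 6 of the 10 and 8 of the 13 genes, beside 17.0% of all 7068 genes. These genes were taken for lying below the limit in 1 library and above it in the other, which favours such a count.

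Near the loci of the set, LOC102637646 inside Pyroxd2 held 0 BL6 reads of 21 (an allelic ratio of up to 0.161 by the exact interval) and 3 of 16, and Gm34070 near Gm33944 held 20 of 61 and 4 of 46.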
